A study of Mus musculus with 12 samples.

Results

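The genes described are 7 zinc transporters of the SLC30 (ZnT) family, Slc30a1, Slc30a3, Slc30a4, Slc30a5, Slc30a6, Slc30a7 and Slc30a9, with the 3 metallothioneins Mt1, Mt2 and Mt3. They were taken by gene symbol from the array annotation, which gave 12 of 25697 probes for 10 of 18097 genes. Slc30a5 and Slc30a7 had 2 probes each, and each of the other 8 genes had 1. Probe 1 of a gene is the one with the higher mean signal.

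RNA came from the hippocampus and the cortex of male 3xTgAD mice, a model of Alzheimer's disease that carries mutant human APP and tau transgenes and a mutant presenilin-1 allele. Every animal in all 4 groups had this genotype, so no wild-type mice stood beside them, and all were 18 months old when the tissue was taken. The AMI group had drunk amitriptyline-hydrochloride, a tricyclic antidepressant, in its water at 100 µg/g body weight for 4 months from the age of 14 months, and the vehicle group had drunk plain water. Per the study's methods, both groups were also injected with the thymidine analogue BrdU during the treatment. Each tissue and treatment had 3 arrays, 12 in all. The labels do not say which mouse gave which sample or whether animals were pooled, so p-values measure the spread between these samples. The arrays measured RNA of whole tissue, in which fewer cells of a type and less RNA per cell cannot be told apart.

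Most ZnT proteins move zinc out of the cytosol, either across the cell surface or into organelles. Metallothioneins are small cysteine-rich proteins that bind zinc and copper inside the cell. The forebrain is known for its vesicular zinc: glutamatergic terminals, above all the mossy fibres of the hippocampus and many cortical projections, load zinc into synaptic vesicles through ZnT3, the product of Slc30a3. Free cytosolic zinc activates the transcription factor MTF1, which binds metal response elements in promoters such as those of Mt1, Mt2 and Slc30a1, whereas Mt3 is the brain-enriched member that metals induce little.

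The probe sequences show what was measured. The bases common to both Slc30a5 probes matter because their results are not independent: the probes overlap by 34 bases, of which the first 30 are shown. The Slc30a3 and metallothionein stretches are shown because these genes, of the synaptic vesicle and of cytosolic zinc binding, are described most closely below. The longest run of bases that any metallothionein probe shares with another was 6, so the 3 probes do not read one sequence. Capitals in the Mt3 stretch, the last 30 bases of its probe, mark an ATG, which was not checked against a transcript model. The Slc30a3, Mt1 and Mt2 stretches are the first 30 bases of their probes.
Slc30a5, both probes: cagccctgcggcatgaacagtgaacagcgg
Slc30a3: tcctcatggaaggcgcccctcggagtgtgg
Mt1: acagttccaccctgtttactaaacccccgt
Mt2: gaaggggggcggaggggtccccacatctgt
Mt3: tgctggactggatATGgaccctgagacctg

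In the array's own annotation, which names no genome build, the Mt3, Mt2 and Mt1 probes lie on the plus strand of chromosome 8. Mt3 lay at 96676667 to 96676716, Mt2 at 96697326 to 96697375 and Mt1 at 96704156 to 96704205, so the metallothionein genes are neighbours. The Slc30a5 probes lay on the minus strand of chromosome 13, probe 1 at 101573191 to 101573240 and probe 2 at 101573207 to 101573256. Slc30a3 was placed on the minus strand of chromosome 5 from 31390426 to 31390688, a stretch longer than the probe of 50 bases.

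Promoters of the metallothioneins are shown because metal response elements are known from the inducible members of the family. The motif searched was TGCACNC or TGCGCNC, the core of the metal response element, on both strands of the 250 bases before each RefSeq start (GRCm38.p6), where N is any base. Of 32851 such promoters, 21.4% held at least 1 match, 5.18% at least 2 and 1.26% at least 3. Capitals mark the matches in the sequences, all from the plus strand.
Mt1, chr8:94178839-94179088: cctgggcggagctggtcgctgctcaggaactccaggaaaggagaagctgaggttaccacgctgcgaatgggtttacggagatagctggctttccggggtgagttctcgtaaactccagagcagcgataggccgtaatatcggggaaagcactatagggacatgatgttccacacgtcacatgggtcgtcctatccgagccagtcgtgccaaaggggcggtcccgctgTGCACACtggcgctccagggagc
Mt2, chr8:94172368-94172617: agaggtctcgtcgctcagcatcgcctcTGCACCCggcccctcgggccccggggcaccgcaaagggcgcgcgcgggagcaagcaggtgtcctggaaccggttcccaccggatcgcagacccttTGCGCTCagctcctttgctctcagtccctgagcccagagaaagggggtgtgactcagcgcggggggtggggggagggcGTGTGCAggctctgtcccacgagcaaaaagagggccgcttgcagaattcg
Mt3, chr8:94152357-94152606: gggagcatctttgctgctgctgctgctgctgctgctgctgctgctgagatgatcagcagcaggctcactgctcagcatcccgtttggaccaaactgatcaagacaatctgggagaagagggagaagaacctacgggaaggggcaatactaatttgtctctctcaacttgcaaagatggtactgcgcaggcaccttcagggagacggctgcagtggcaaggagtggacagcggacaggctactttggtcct
The Mt2 window held 3 matches, 2 of them on the plus strand, the Mt1 window held 1 and the Mt3 window held none of these letters. Among the transporters, the windows of Slc30a1 and Slc30a5 held 1 match each and that of Slc30a4 held 2. Slc30a3 has 2 RefSeq starts, and the window of 1 of them held 1 match. Slc30a6, Slc30a7 and Slc30a9 had none in their windows. Bases after each start were not searched, so a gene can hold more matches than its window. The Mt1 match lay 16 to 23 bases before the start, close to the edge of the window.

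Signals are mean bead intensities without background subtraction, and levels are log2 signals normalized within each array, on one log2 scale for all 12 arrays. Levels of different probes were not compared, since probes bind with different strength. Between 49.0% and 51.7% of probes were detected per array, at a detection p of 0.05 or less, and the median signal of undetected probes lay between 52.2 and 73.2. The tissue labels were borne out by most markers: of 4 hippocampal markers tested, Prox1, C1ql2 and Fibcd1 were higher in the hippocampus and Wfs1 was lower, and of 5 cortical markers Tbr1, Rorb, Cux2 and Rspo1 were higher in the cortex and Fezf2 was lower there (all at an adjusted p under 0.05 in limma). On the first principal component of their tissue, AMI 1 (-0.60) and vehicle 1 (-0.53) lay lowest in the hippocampus. In the cortex vehicle 3 (-0.62) and AMI 3 (-0.35) lay lowest. These arrays are called those that stood apart, and values without them are given where they moved a result. Within its own group cortical AMI 3 was not the outlying array, as AMI 1 lay at -0.17 and AMI 2 at 0.26.

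Signal was detected for 10 probes on all 12 arrays. Probe 2 of Slc30a7 was detected on all 6 hippocampal arrays but on only 2 cortical ones. Slc30a4, the endosomal transporter mutated in the lethal milk mouse, was detected on 1 array, hippocampal vehicle 1, with signals from 60.0 to 91.6 over the 12 arrays, near the median of undetected probes, and it was not tested. The tests therefore covered 11 hippocampal and 10 cortical probes, for 9 genes in each tissue.

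**Figure D1:**
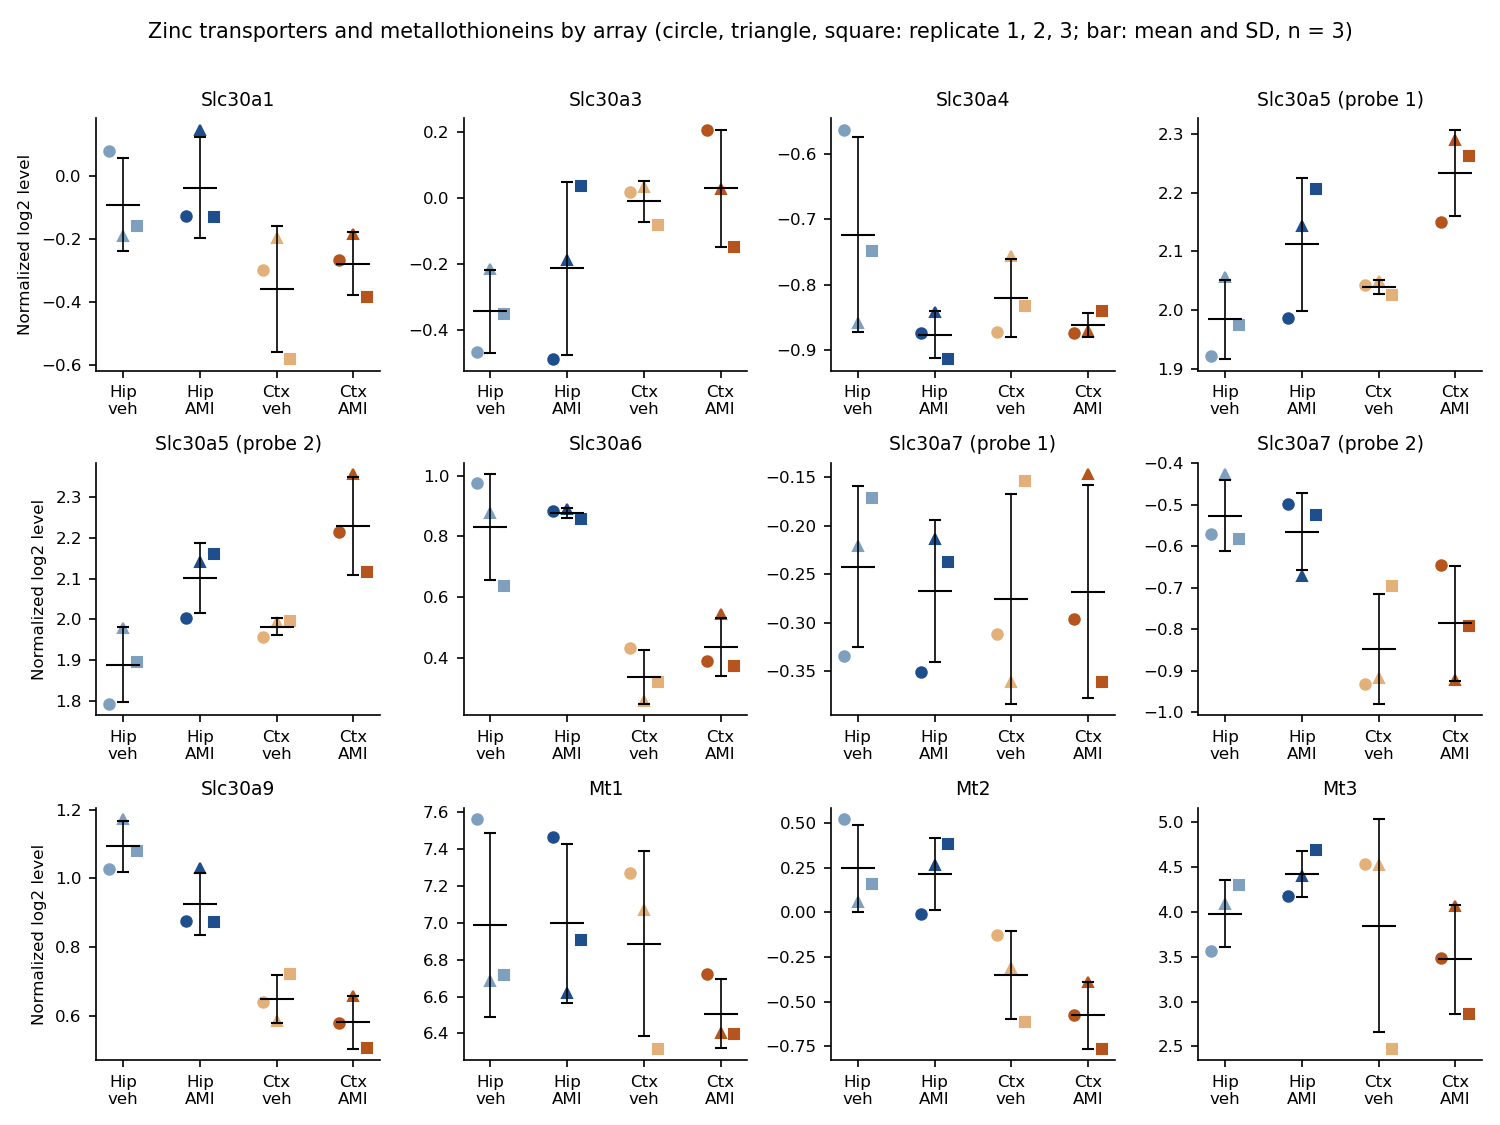
Normalized log2 level of each of the 12 probes (vertical axes, each with its own range) on every array of the hippocampus (Hip) and the cortex (Ctx) of vehicle (veh) and AMI mice. Symbols give the replicate number and bars the mean and SD of 3 arrays. Slc30a6, Slc30a9 and Mt2 sat higher on all hippocampal than on all cortical arrays, and Mt1 and Mt3 had the widest spread.

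The comparison of AMI with vehicle asked whether long-term treatment changed transcript levels in each tissue. No zinc transporter or metallothionein passed the test in either tissue. In the hippocampus, 0 of 11 probes had an adjusted p under 0.05 in limma, against 0% of 13163 probes tested, and 0 had an unadjusted p under 0.05, against 2.35%. Differences of the 11 probes ran from -0.17 to 0.44 on the log2 scale, with a median of 0.05 against 0.01 over all probes. The AMI mean was higher for 7 of 11 members, against 55% of all probes. In the cortex, 0 of 10 probes passed, against 0% of 12944, and 1 probe, Slc30a5 probe 2, had an unadjusted p under 0.05, against 6.28% of all probes and 4.36% that were higher under AMI. The study's cutoffs were a z ratio of at least 1.5, a p of at most 0.05 and a false discovery rate under 0.3. Applied here to p-values and adjusted p-values from limma, they passed 0 members in either tissue, against 0% and 0.0232% of all probes. With its own tests the study reported Slc30a5 as raised by AMI in both tissues. The cortical differences ran from -0.38 to 0.25, with a median of 0.02 against 0.02 over all probes. The cortical AMI mean was higher for 6 of 10, against 57.1%.

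**Figure D2:**
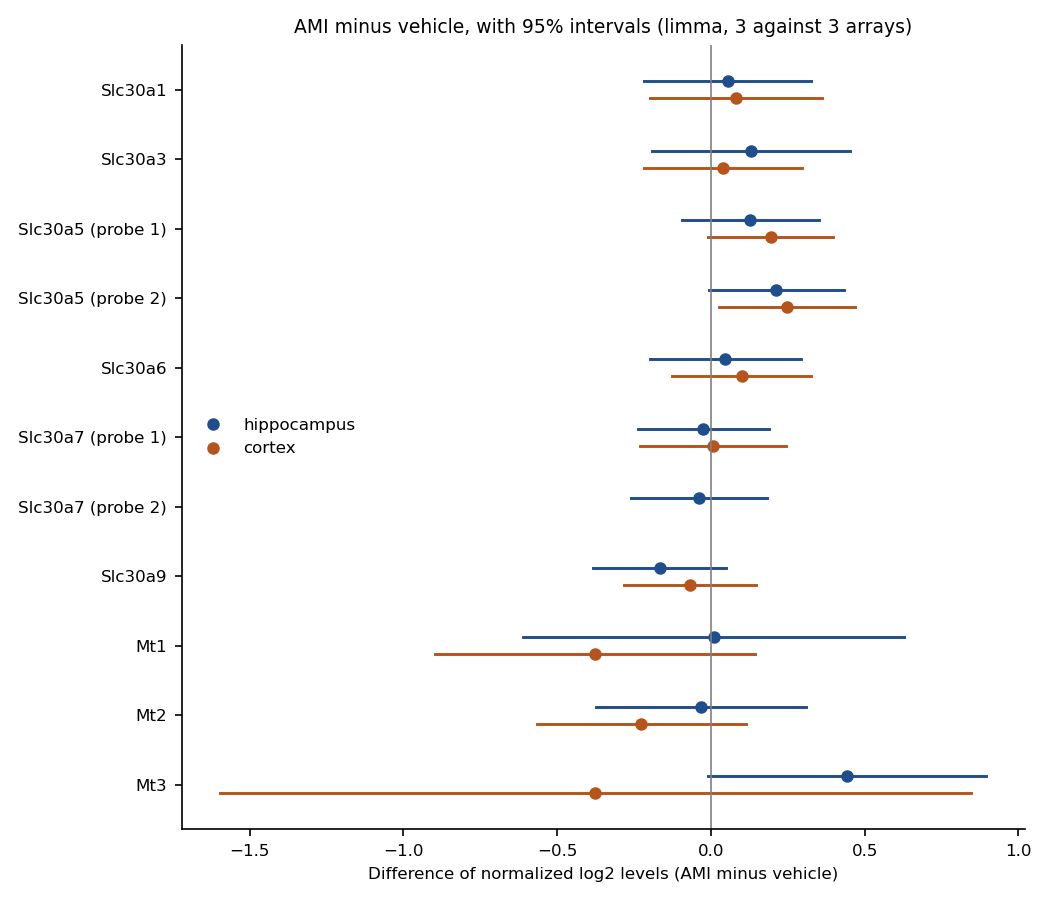
Difference between AMI and vehicle in normalized log2 level (horizontal axis) for each probe tested in the hippocampus (blue) and the cortex (orange). Points are estimates and lines 95% intervals from limma. Only the cortical interval of Slc30a5 probe 2 lay wholly on one side of 0, and the intervals of Mt1 and Mt3 were the widest.

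Slc30a5 encodes ZnT5, which loads zinc into the early secretory pathway together with ZnT6, for enzymes such as alkaline phosphatase. In the cortex its probe 2 had signals of 607.5, 963 and 471 in AMI replicates 1, 2 and 3 and of 523, 513 and 451 in vehicle replicates 1, 2 and 3. After normalization the levels were 2.21, 2.35 and 2.12 under AMI and 1.96, 1.99 and 2.0 under vehicle. All 3 AMI arrays thus lay above all 3 vehicle arrays. The difference was 0.25 ± 0.10 (SE, 95% interval 0.02 to 0.47), a 1.19-fold higher level, with an unadjusted p of 0.033 and an adjusted p of 0.759 in limma. Probe 1, which shares most of its bases, had cortical levels of 2.15, 2.29 and 2.26 under AMI and of 2.04, 2.05 and 2.03 under vehicle, again without overlap. Its difference was 0.19 ± 0.09 (SE, 95% interval -0.01 to 0.40, adjusted p = 0.784 in limma).

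In the hippocampus, probe 2 of Slc30a5 had levels of 2.0, 2.14 and 2.16 under AMI and of 1.79, 1.98 and 1.90 under vehicle, and the groups did not overlap. Probe 1 had 1.99, 2.14 and 2.21 under AMI and 1.92, 2.06 and 1.97 under vehicle, where the lowest AMI array fell among the vehicle arrays. Differences of 0.21 ± 0.10 for probe 2 and of 0.13 ± 0.10 for probe 1 (SE) had an adjusted p of 0.9996 in limma. Over all tested members, 1 of 11 hippocampal and 2 of 10 cortical probes had groups that did not overlap, all of them Slc30a5 probes higher under AMI, against 7.89% and 12.2% of all probes, or 4.38% and 8.1% counting those higher under AMI. The study itself singled out Slc30a5 from these same arrays, so its appearance here is not independent evidence. The replicate number was also used as a block in the hippocampus, where the arrays numbered 1 stood together. With it, 2 of 11 hippocampal probes had an unadjusted p under 0.05, Slc30a5 probe 2 and Mt3, against 8.08% of all probes. Neither passed after adjustment (adjusted p = 0.609 and 0.566 in limma, against 0% of all probes).

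The partners of ZnT5 in the secretory pathway showed smaller differences. Slc30a6, the gene of ZnT6, had hippocampal levels of 0.88, 0.89 and 0.86 under AMI and of 0.98, 0.88 and 0.64 under vehicle, so that the tight AMI group lay within the vehicle range. The difference was 0.05 (95% interval -0.20 to 0.29), and in the cortex it was 0.10 (95% interval -0.13 to 0.32). Slc30a7 encodes ZnT7, the other transporter of the early secretory pathway. Its probe 1 differed by -0.03 (95% interval -0.24 to 0.19) in the hippocampus and by 0.01 (95% interval -0.23 to 0.24) in the cortex, and its probe 2 by -0.04 (95% interval -0.26 to 0.18) in the hippocampus. These 5 intervals exclude a doubling, which is 1 on the log2 scale, in either direction.

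Slc30a3, the vesicular transporter, had hippocampal signals of 77.3, 144 and 146 in AMI replicates 1, 2 and 3 and of 89.5, 130 and 114 in vehicle replicates 1, 2 and 3. Both arrays numbered 1 were dim in absolute terms and lay lowest after normalization as well, at -0.49 and -0.47. The difference was 0.13 (95% interval -0.19 to 0.45, adjusted p = 0.9996 in limma). Cortical levels overlapped, from -0.15 to 0.21 under AMI and from -0.08 to 0.03 under vehicle, with a difference of 0.04 (95% interval -0.22 to 0.30).

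Slc30a1 encodes ZnT1, which exports zinc across the plasma membrane. Its difference was 0.05 (95% interval -0.22 to 0.33) in the hippocampus and 0.08 (95% interval -0.20 to 0.36) in the cortex. Slc30a9 encodes ZnT9, a transporter of the mitochondrion. In the hippocampus its levels were 0.87, 1.03 and 0.87 under AMI and 1.03, 1.17 and 1.08 under vehicle. Each AMI array lay below the vehicle array of the same number, and the groups met at 1.03. The difference was -0.17 ± 0.09 (SE, 95% interval -0.38 to 0.05, adjusted p = 0.9996 in limma), and in the cortex it was -0.07 (95% interval -0.28 to 0.15). Counted over same-numbered hippocampal arrays, 3 of 11 probes were higher under AMI in all 3 (both Slc30a5 probes and Mt3), against 18.4% of all probes, and 1 of 11 was lower in all 3 (Slc30a9), against 13%.

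In normalized level, metallothioneins varied more between replicates than the transporters. In hippocampal signal not all of them did. The highest signal was 2.38 times the lowest for both Mt1 and Slc30a5 probe 1, 1.95 times for Mt2 and 4.35 times for Mt3. Mt1, an inducible metallothionein that astrocytes express strongly, was among the brightest probes, with 9 to 67 of the 25697 probes brighter on an array. In the hippocampus its signals were 13996, 33262 and 29970.3 in AMI replicates 1, 2 and 3 and 18496, 24401 and 21565 in vehicle replicates 1, 2 and 3. The arrays numbered 1 were the dimmest in signal, yet they had the highest normalized levels, 7.46 under AMI and 7.56 under vehicle, against 6.62 to 6.91 on the other 4 arrays. Those 2 arrays also had the smallest spread of log2 signals over all probes, 1.51 and 1.53 (SD) against 1.71 to 1.85 on the others, and the normalization divides by that spread. The difference between AMI and vehicle was 0.01 ± 0.27 (SE, adjusted p = 0.9996 in limma).

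Mt2, the second inducible metallothionein, had hippocampal levels of -0.01, 0.27 and 0.38 under AMI and of 0.52, 0.06 and 0.16 under vehicle. The largest contrast lay within number 1, where AMI was lower by 0.53, while AMI was higher by 0.21 and 0.22 in the others. The difference of -0.03 (95% interval -0.37 to 0.31) became 0.22 (95% interval -0.01 to 0.44, adjusted p = 0.703 in limma) without both arrays numbered 1.

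Mt3 gave the largest difference of the group in the hippocampus. Its signals were 1629, 5653 and 5380.4 in AMI replicates 1, 2 and 3 and 1299, 3389 and 3579 in vehicle replicates 1, 2 and 3. Normalized levels were 4.17, 4.40 and 4.69 under AMI and 3.56, 4.09 and 4.29 under vehicle. AMI arrays were higher by 0.61, 0.32 and 0.40 within the same numbers, although the groups overlapped and a pairing of numbers 2 and 3 is not shown. The difference was 0.44 ± 0.20 (SE, 95% interval -0.01 to 0.90), a 1.36-fold higher level, with an unadjusted p of 0.055 and an adjusted p of 0.9996 in limma. With the replicate block the interval was 0.25 to 0.64 and the adjusted p 0.566, and without both arrays numbered 1 the difference was 0.36 (95% interval 0.05 to 0.66, adjusted p = 0.703 in limma). Leaving out 1 array gave Mt3 differences from 0.23 (without vehicle 1) to 0.60 (without vehicle 3).

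In the cortex all 3 metallothioneins had lower mean levels under AMI, and none passed the test. Mt1 had signals of 11343, 18501 and 6543 in AMI replicates 1, 2 and 3 and of 17589.9, 14151 and 6422 in vehicle replicates 1, 2 and 3, with the arrays numbered 3 the dimmest of each group. Its difference was -0.38 ± 0.23 (SE, adjusted p = 0.826 in limma). Mt2 differed by -0.23 ± 0.15 (SE, adjusted p = 0.852 in limma), from levels of -0.58, -0.39 and -0.76 under AMI and of -0.13, -0.31 and -0.61 under vehicle.

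Cortical Mt3 signals were 1385, 3371 and 743 in AMI replicates 1, 2 and 3 and 2882.5, 2689 and 606 in vehicle replicates 1, 2 and 3, a 5.56-fold range over the tissue. The normalized level of vehicle 3 was 2.48, against 4.54 and 4.53 on vehicle 1 and 2. Its difference of -0.38 had a 95% interval of -1.6 to 0.84, which holds a change of more than 2-fold down and none. Single arrays decided the size in both directions. Without vehicle 3 the Mt3 difference was -1.06 (adjusted p = 0.143 in limma) and without AMI 2 it was -0.68, but it shrank to -0.031 without vehicle 1, to -0.036 without vehicle 2 and to -0.069 without AMI 3. For Mt1, leaving out 1 array gave -0.66 without vehicle 3 (adjusted p = 0.125 in limma) to -0.19 without vehicle 1, and for Mt2 it gave -0.36 without vehicle 3 to -0.11 without vehicle 1. Without vehicle 3 and AMI 3 the Mt3 difference was -0.75 (95% interval -1.15 to -0.36) and the Mt1 difference -0.61 (95% interval -0.92 to -0.29), both with an adjusted p of 0.120 in limma.

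**Figure D3:**
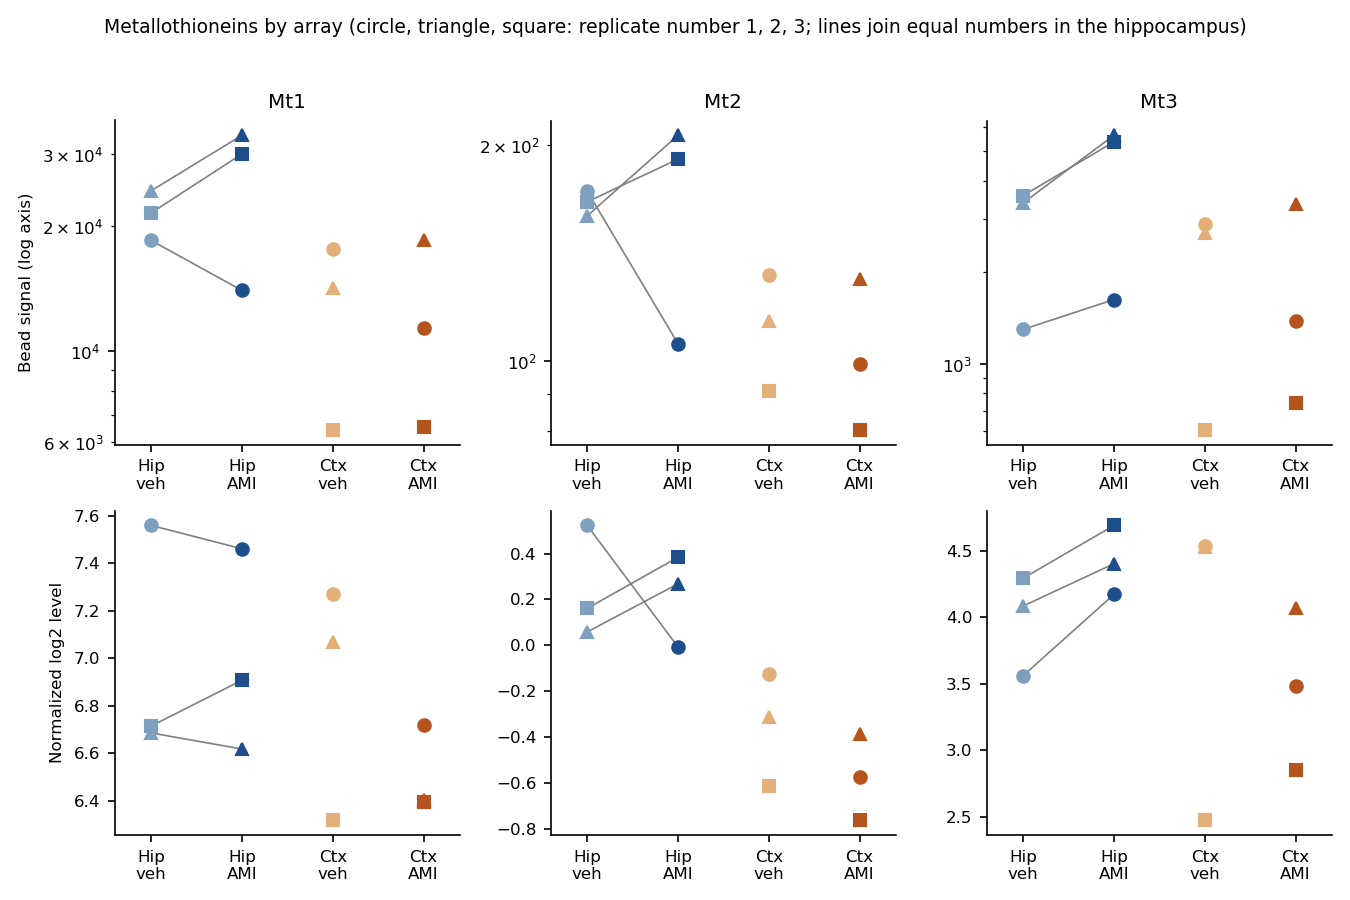
Bead signal (upper row, log axis) and normalized log2 level (lower row) of Mt1, Mt2 and Mt3 on each array of the hippocampus (Hip) and the cortex (Ctx), vehicle (veh) and AMI, with symbols for the replicate number and lines between equal numbers in the hippocampus. Mt3 was higher under AMI along all 3 hippocampal lines, and the arrays numbered 1 had low Mt1 signals but the highest Mt1 levels of the hippocampus.

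The spread between replicates put these values in proportion. Residual SDs were taken from normalized levels and so depend on the scaling of each array. Those of the transporters lay between 0.05 and 0.21 log2 units in either tissue, against a median of 0.14 over all tested probes. Mt3 in the cortex had a residual SD of 0.94, and 0.10% of the 12944 probes were more variable. Mt1 had 0.46 in the hippocampus, where 1.47% of probes were more variable, and 0.38 in the cortex, where 3.30% were. Mt2, with 0.22 in each tissue, was closer to the bulk of probes.

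Whether AMI acted differently in the tissues was tested as the tissue by treatment interaction over all 12 arrays. None of 10 probes passed, and 0 had an unadjusted p under 0.05, against 0% and 3.03% of 12430 probes in limma. The largest interaction was that of Mt3, 0.82 (95% interval -0.58 to 2.22), from a difference of 0.44 in the hippocampus and -0.38 in the cortex. Mt1 had 0.39 (95% interval -0.47 to 1.25) and Mt2 0.19 (95% interval -0.30 to 0.68). Leaving out 1 array moved the interaction of Mt3 between 0.47 (without cortical vehicle 1) and 1.504 (without cortical vehicle 3). It moved that of Mt1 between 0.15 (without hippocampal AMI 1) and 0.67 (without hippocampal vehicle 1), and that of Mt2 between 0.081 (without cortical vehicle 1) and 0.33 (without hippocampal vehicle 1), none of them called. Without the 4 arrays that stood apart the interactions were 1.11 for Mt3, 0.67 for Mt1 and 0.48 for Mt2, each with an adjusted p of 0.569 in limma.

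Markers of cell types were compared between AMI and vehicle as well. Of all probes, 55% had higher means under AMI in the hippocampus and 57.1% in the cortex. In the hippocampus all 7 oligodendrocyte markers tested had lower means under AMI, none of them called, with list means per array of 3.61 to 3.98 under AMI and 3.93 to 4.46 under vehicle. All 6 choroid plexus markers were lower too, none called, with list means of 1.26 to 1.59 under AMI and 1.5 to 4.18 under vehicle, where vehicle 3 alone stood at 4.18. Astrocyte markers, of which 9 of 12 had higher means under AMI and none was called, lay at 2.63 to 2.81 under AMI and 2.52 to 2.75 under vehicle. Ermn, an oligodendrocyte marker, was detected on no array. In the cortex all 5 glutamatergic neuron markers tested had lower means under AMI, none called, with list means of 3.61, 3.61 and 3.48 on AMI 1, 2 and 3 and of 3.92, 3.89 and 3.44 on vehicle 1, 2 and 3. Vehicle 3 was the lowest of its group there, as it was for Mt3. Of 5 GABAergic markers 4 had lower means under AMI in the cortex, and of 12 astrocyte markers 8 had higher ones, none called. Neurod6, a glutamatergic marker, and Gad2, a GABAergic one, were detected on no array. The part of these cell types in the metallothionein differences was not tested.

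Across the 6 arrays of a tissue, the metallothioneins were compared with each other in 6 correlations. In the cortex, Mt2 and Mt3 had a Pearson r of 0.89 (exact permutation p = 0.025, adjusted p = 0.125) and a Spearman rho of 0.94 (exact permutation p = 0.0167, adjusted p = 0.050). Without the 2 arrays farthest from the median of Mt2, r was 0.93. Mt1 with Mt3 gave r = 0.81 (exact permutation p = 0.0625, adjusted p = 0.125) and rho = 0.94 (exact permutation p = 0.0167, adjusted p = 0.050), and r fell to 0.40 without the 2 farthest arrays, vehicle 1 and vehicle 2. Mt1 with Mt2 gave r = 0.81 (exact permutation p = 0.0583, adjusted p = 0.125) and rho = 0.89 (exact permutation p = 0.0333, adjusted p = 0.0667), and this relation rested on the same 2 arrays, since r was 0.08 without them.

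No relation had an adjusted p under 0.05 in the cortex, and none of the 3 had one in the hippocampus. Mt1 with Mt3 gave r = -0.62 (exact permutation p = 0.207, adjusted p = 0.310) and rho = -0.43 (exact permutation p = 0.419, adjusted p = 0.629), but 0.71 without AMI 1 and vehicle 1. Mt2 with Mt3 gave r = -0.22 (exact permutation p = 0.704, adjusted p = 0.704) and rho = 0.09 (exact permutation p = 0.919, adjusted p = 0.919), and 0.99 without the same 2 arrays. Mt1 with Mt2 gave r = 0.24 (exact permutation p = 0.631, adjusted p = 0.704) and rho = 0.26 (exact permutation p = 0.658, adjusted p = 0.790), and 0.61 without them. The arrays numbered 1 thus decided the sign for Mt3, and with other scalings the sign for Mt1 with Mt3 turned as well.

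More members passed between the tissues than between the treatments. Of 10 probes, 5 passed in the comparison of all hippocampal with all cortical arrays, 4 higher in the hippocampus (Mt2, Slc30a6, Slc30a9 and Slc30a1) and 1 lower (Slc30a3), against 42.4% of 12430 probes called, 23.9% higher in the hippocampus and 18.5% higher in the cortex. The share of members is thus near that of all probes. The median difference of the members was 0.28, against 0.02 over all probes. The software that exported the signals differed between the tissues, so tissue and export cannot be told apart.

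**Figure D4:**
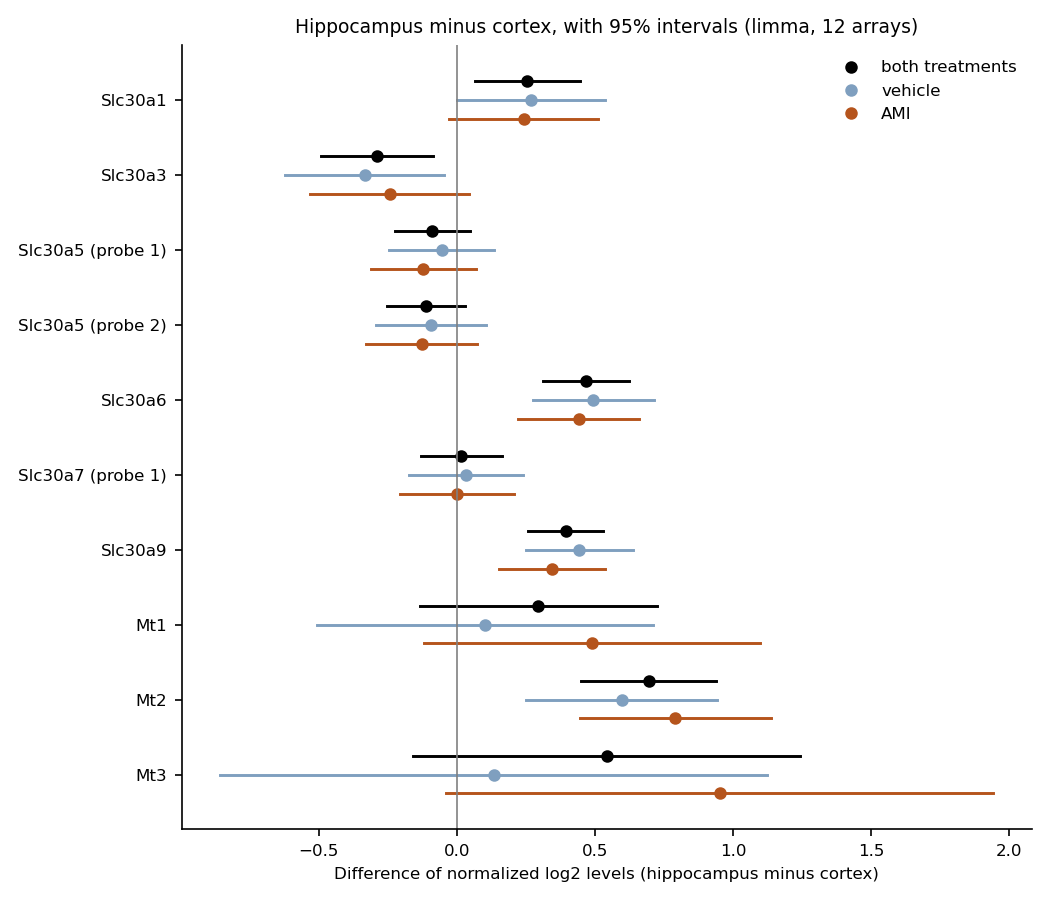
Difference between hippocampus and cortex in normalized log2 level (horizontal axis) for each probe tested, over both treatments (black), in vehicle mice (light blue) and in AMI mice (orange), with 95% intervals from limma. For Mt2, Slc30a6 and Slc30a9 all 3 intervals lay above 0.

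Mt2 had the largest called difference. Its signals ranged from 106 to 207 in the hippocampus and from 80.2 to 132 in the cortex, near those of undetected probes. Every hippocampal array, at -0.01 to 0.52 with a median of 0.21, had a higher normalized level than every cortical array, at -0.76 to -0.13 with a median of -0.48. The difference was 0.69 ± 0.11 (SE, adjusted p = 0.000357 in limma), a 1.62-fold higher level, and it was 0.60 in vehicle mice (adjusted p = 0.0159) and 0.79 in AMI mice (adjusted p = 0.00331). Mt1 differed by 0.30 ± 0.20 (SE, 95% interval -0.13 to 0.72) and Mt3 by 0.54 ± 0.32 (SE, 95% interval -0.16 to 1.24), neither called, and Mt1 turned to -0.13 without the 4 arrays that stood apart.

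Among the organellar transporters, Slc30a6 had levels of 0.64 to 0.98 in the hippocampus and of 0.26 to 0.55 in the cortex, with no overlap. Its difference was 0.47 ± 0.07 (SE, adjusted p = 0.000227 in limma). Slc30a9 had 0.87 to 1.17 in the hippocampus and 0.51 to 0.72 in the cortex, also without overlap, and differed by 0.39 ± 0.06 (SE, adjusted p = 0.000313 in limma). Both held within each treatment, at 0.49 and 0.44 for Slc30a6 and at 0.44 and 0.34 for Slc30a9 in vehicle and AMI mice, with adjusted p-values of at most 0.0133 in limma. Within a treatment, 3 of 10 members were called (Mt2, Slc30a6 and Slc30a9, each higher in the hippocampus), against 24.9% of all probes in vehicle mice, 14.9% with the hippocampus higher and 10% with the cortex higher, and against 26.1%, 14.6% and 11.5% in AMI mice. The tissues did not overlap for 3 of 10 probes, all 3 higher in the hippocampus, against 22% of all probes, 13.2% higher in the hippocampus and 8.79% in the cortex. Slc30a5 and Slc30a7, their relatives in the secretory pathway, differed by -0.09 (95% interval -0.22 to 0.05), -0.11 (95% interval -0.25 to 0.03) and 0.02 (95% interval -0.13 to 0.16) for Slc30a5 probe 1, probe 2 and Slc30a7 probe 1.

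Slc30a3 was the called transporter with the higher level in the cortex. Hippocampal levels ran from -0.49 to 0.04 and cortical levels from -0.15 to 0.21, so the tissues overlapped. The difference was -0.29 ± 0.09 (SE, adjusted p = 0.0255 in limma), a 1.22-fold higher level in the cortex, and it did not pass within vehicle mice (-0.33, adjusted p = 0.0852) or AMI mice (-0.24, adjusted p = 0.202) alone. Leaving out hippocampal vehicle 1, hippocampal AMI 1 or cortical AMI 1 ended the call, at an adjusted p of 0.0589, 0.0518 and 0.0711. Slc30a1 was higher in the hippocampus by 0.26 ± 0.09 (SE, adjusted p = 0.0320 in limma), and leaving out any 1 of 5 arrays ended that call: hippocampal vehicle 1, hippocampal AMI 2, cortical AMI 1, cortical AMI 3 or cortical vehicle 3, at adjusted p-values of 0.0580 to 0.0810. Without the 4 arrays that stood apart Slc30a1 differed by 0.15 and was not called either (adjusted p = 0.145). Within vehicle mice Slc30a1 differed by 0.27 (adjusted p = 0.134) and within AMI mice by 0.24 (adjusted p = 0.172). The number of called members was 3 without hippocampal vehicle 1 or without cortical AMI 1.

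Under another scaling, the centring of each array on its median, the median of all probes shifted by 0.21 toward the hippocampus, and 88.0% of called probes were then higher there, against 56.3% here. Relative to that shift Mt2 was higher by 0.54, Slc30a6 by 0.40, Slc30a9 by 0.35 and Slc30a1 by 0.10 in the hippocampus, and Slc30a3 was lower by 0.43. Without that subtraction Slc30a3 lost its call under this scaling (-0.22, adjusted p = 0.139 in limma) and Mt1 gained one (1.12, adjusted p = 0.00443). With neqc, which subtracts background, the difference was 1.07 for Mt2 and -0.57 for Slc30a3, both called and over 1.5 times as large.

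Cell type markers were compared between the tissues as well. Of all probes, 42.4% were called there, 23.9% higher in the hippocampus and 18.5% higher in the cortex. All 12 microglia markers had higher means in the hippocampus and 10 were called, with list means per array of 1.06 to 1.44 there and 0.64 to 0.82 in the cortex. Of 12 astrocyte markers 4 were called higher in the hippocampus (Gfap, S100b, Fgfr3 and Glul) and 2 lower (Aqp4 and Slc1a2), with list means of 2.52 to 2.81 there and 2.31 to 2.61 in the cortex. All 7 oligodendrocyte markers had lower means in the hippocampus and 4 were called, with list means of 3.61 to 4.46 there and 4.16 to 4.72 in the cortex. All 7 endothelial markers had lower means in the hippocampus and 2 were called, with list means of 1.59 to 1.9 there and 1.63 to 2.33 in the cortex, while Cdh5 and Abcb1a were detected on no array. Of 5 GABAergic neuron markers 4 had lower means in the hippocampus and 3 were called lower, with list means of 3.6 to 4.01 there and 4.07 to 4.35 in the cortex. Of 5 glutamatergic ones 1 was called higher and 2 lower. Their part in the differences of Mt2 and the transporters was not tested.

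Other genes of zinc handling, listed by role, did not pass the test of AMI against vehicle either. Of 9 zinc importers of the SLC39 (ZIP) family tested in each tissue, 0 were called, and by their means 2 lay above vehicle and 7 lay below it in the hippocampus, against 3 and 6 in the cortex. Slc39a4, known for zinc uptake in the intestine, differed by -0.51 (95% interval -1.11 to 0.08) in the hippocampus and by 0.05 (95% interval -0.31 to 0.40) in the cortex. In the hippocampus and the cortex, Slc39a6 differed by -0.04 and -0.06 and Slc39a7 by 0.01 and -0.14. Slc39a10 differed there by 0.11 and 0.19 and Slc39a12 by -0.11 and 0.06. Slc39a1, tested in the hippocampus alone, differed by -0.02. Mtf1, the zinc-sensing transcription factor, differed by 0.10 (95% interval -0.12 to 0.31) in the hippocampus and by 0.10 (95% interval -0.14 to 0.33) in the cortex. Slc30a10, a manganese exporter of the ZnT family and the 1 gene tested among other zinc exporters, differed by -0.04 (95% interval -0.33 to 0.25) in the hippocampus and by -0.22 (95% interval -0.49 to 0.05) in the cortex.

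The AP-3 adaptor complex carries ZnT3 to synaptic vesicles. Of its 6 genes tested, 0 were called in either tissue, with 5 higher and 1 lower under AMI by their means in the hippocampus and 3 each way in the cortex. In the cortex 2 of the 6 had an unadjusted p under 0.05, against 6.28% of all probes tested there. Ap3b2, the neuronal beta subunit, differed by -0.31 (95% interval -0.57 to -0.05) and Ap3d1, the delta subunit, by -0.29 (95% interval -0.52 to -0.07), both with an adjusted p of 0.756 in limma. The hippocampal differences of Ap3b2 and Ap3d1 were 0.00024 and -0.073. Of the other lists, 5 hippocampal and 4 cortical genes that sense zinc or control metallothioneins, 3 and 4 zinc-dependent secretory enzymes, and 13 copper and iron genes in each tissue gave no call. At an unadjusted p under 0.05 in limma, each of these lists had 1 hippocampal gene, against 2.35% of all probes. In the cortex the list of zinc sensing and metallothionein control had 1, against 6.28%, and the others had 0.

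Between the tissues, 3 of 8 zinc importers were called, near the 42.4% of all probes. Slc39a3 was higher in the hippocampus by 0.23 ± 0.07 (SE, adjusted p = 0.0143 in limma). Slc39a12, a brain importer, was higher in the cortex by 0.39, and Slc39a7, which releases zinc from the endoplasmic reticulum, by 0.21. Of 6 genes of the AP-3 complex, 3 were called, again near the 42.4% of all probes, and each was higher in the cortex, as 18.5% of all probes were: Ap3d1 by 0.44, Ap3m2 by 0.36 and Ap3s2 by 0.31. Mtf1 did not differ beyond its error, at -0.01 (95% interval -0.16 to 0.14).

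The genes most like a member in pattern were sought by Pearson's r of deviations from the tissue means over 12 arrays, among 10979 probes detected on all of them, as a description without a test, since the arrays share scaling and depth. Mt1 was most like Rpl37 (r = 0.98), a ribosomal protein gene, and 2 predicted genes, LOC100048483 (r = 0.95) and LOC100048187 (r = 0.95), all with signals of at least 2659. Mt2 was most like Arpc5l (r = 0.90), Rhou (r = 0.85) and OTTMUSG00000003802 (r = 0.85). Slc30a3 was most like Pou2f2 (r = 0.93), 1700019D03Rik (r = 0.91) and Pde4a (r = 0.91), and Slc30a5 most like Tfam (r = 0.92), Eid2 (r = 0.91) and Gemin6 (r = 0.90). No other member was among these closest genes: Mt1 and Mt2 had r = 0.54 with each other, and Mt1 and Slc30a5 had r = -0.56.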

How the data were processed

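Whole hippocampus and cortex RNA of 12 samples was hybridized to Illumina Sentrix MouseRef-8 v2 arrays. The authors deposited, per probe, the raw linear bead signal intensity, neither background-subtracted nor normalized, with its detection p-value, from BeadStudio 3.4 (hippocampus) and GenomeStudio 1.1.1 (cortex). As the study's methods state z normalization, log2 signals were centred on each array's mean and divided by its SD over all probes, then put back on a log2 scale by 1.60, the arrays' average SD. A probe was tested where 3 or more of a tissue's 6 arrays (of both tissues in fits of 12 arrays) detected it at a detection p-value up to 0.05, with limma 3.58.1 (lmFit, eBayes; R 4.3.3), with Benjamini-Hochberg adjustment over all tested probes and calls at an adjusted p under 0.05. Scripts were tested on simulated data. Tables used Python 3.11.15. Arrays limit precision by their number, 3 per group.

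Hippocampal deviations from group means correlated by 0.61, 0.30 and 0.29 between AMI and vehicle arrays of replicate numbers 1, 2 and 3. Unequal numbers gave 0.28 for AMI 3 with vehicle 2, 0.17 for AMI 2 with vehicle 3 and negative values otherwise. The arrays numbered 1 thus stood together, while a pairing of numbers 2 and 3 is not shown. Members and lists were chosen with earlier results of these data known. Text names all member probes, the closest 3 genes to Mt1, Mt2, Slc30a3 and Slc30a5, fixed zinc genes (of which those passing the filter have values), and list genes called or of contrasting direction, the latter chosen after their values were seen. RefSeq (GRCm38.p6) promoters matched all 10 genes.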

Additional observations from a re-analysis of the deposited data

How the results depend on the processing

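The count of called members stayed at 0 in both treatment comparisons and in the interaction, with 1 exception. It did so under all other normalizations, filters, weights, tests and blocks and without each array. Under the study's cutoffs for z ratio and p, applied to limma p-values without the false discovery rate, 1 cortical probe (Slc30a5 probe 2) passed. Members with an unadjusted p under 0.05 numbered, in the hippocampus, 2 with quantile normalization, without a detection filter, with the replicate block and without both arrays numbered 1, 1 with neqc, trended robust variances, the methods' t-test and 12 arrays in one fit, and 3 with array weights, against 0. In the cortex they numbered 0 with median centring and neqc, 2 without a filter, with the methods' t-test, with 12 arrays in one fit and with the replicate block, 3 without vehicle 3 and AMI 3 and 4 with array weights, against 1. In the interaction they numbered 2 with array weights and 3 without the 4 arrays that stood apart, against 0. Leaving out each array gave 0 to 2 in the hippocampus, 0 to 4 in the cortex and 0 to 1 in the interaction.

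Between the tissues, 3 members were called, and 3 had an unadjusted p under 0.05, with a detection p of 0.01 or less required on all arrays, which dropped Mt2 and Slc30a1 from the test. With quantile normalization 8 had an unadjusted p under 0.05. Leaving out each array gave 3 to 5 calls and 5 to 6 unadjusted ones. Slc30a1 lost its call with quantile normalization (adjusted p = 0.0681) and neqc (0.0597) and without the 4 arrays that stood apart (0.145), and Slc30a3 with median centring (0.139). Mt1 gained one with quantile normalization (0.43, adjusted p = 0.0453) and median centring (1.12, adjusted p = 0.00443), as did Slc30a5 probe 2 with quantile normalization (-0.15, adjusted p = 0.0309).

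Signs turned only for uncalled differences. In the hippocampus Mt2 turned to 0.017 with median centring, 0.18 with array weights and 0.22 without both arrays numbered 1. In the cortex Slc30a7 turned to -0.050 with quantile normalization and -0.090 with neqc, Slc30a3 to -0.026 and -0.046, and Slc30a9 to 0.0068 without vehicle 3 and AMI 3. In the interaction Slc30a1 turned to 0.0016 with quantile normalization, 0.020 with median centring, 0.092 with array weights and 0.16 without the 4 arrays, Slc30a7 to 0.012 with quantile normalization and 0.017 with neqc, and Slc30a5 to 0.0087 with array weights (probe 1) and 0.00061 with median centring (probe 2). Between tissues Slc30a5 turned to 0.23 (probe 1) and 0.20 (probe 2) with median centring, Slc30a7 to -0.027 with quantile normalization and -0.045 with neqc, and Mt1 to -0.043 with array weights and -0.13 without the 4 arrays.

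Leaving out single arrays turned Mt1 (-0.22 to 0.30), Mt2 (-0.13 to 0.11), Slc30a1 (-0.038 to 0.14), Slc30a6 (-0.050 to 0.12), Slc30a7 probe 1 (-0.071 to 0.017) and probe 2 (-0.072 to 0.015) in the hippocampus, and Slc30a1 (-0.031 to 0.16), Slc30a7 (-0.053 to 0.07) and Slc30a3 (-0.050 to 0.13) in the cortex. It turned the interactions of Slc30a1 (-0.12 to 0.085), Slc30a7 (-0.093 to 0.028), Slc30a5 probe 2 (-0.090 to 0.029), Slc30a6 (-0.15 to 0.020) and Slc30a3 (-0.033 to 0.23), and the tissue difference of Slc30a7 (-0.0062 to 0.047).

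The correlation of Mt1 with Mt3 in the hippocampus turned to 0.42 with quantile normalization, 0.83 with median centring and 0.41 with neqc, and that of Mt2 with Mt3 to 0.24 with median centring. In the cortex Mt1 with Mt3 passed at 0.98 with quantile normalization, 0.99 with median centring and 0.98 with neqc. Cortical deviations of same-numbered arrays correlated by -0.06, 0.33 and 0.33. AMI 1 was closest to vehicle 3 (0.15), so the numbers do not pair all of these arrays. The replicate block left 0 calls in the cortex and, as a random block, changed no call in the interaction or between tissues. The causes were not tested. Slide as a block was not run, since the file headers give no slide. The arrays that stood apart were left out after seeing the data. Signals near those of undetected probes limit Slc30a1, Slc30a3, Slc30a7 and Mt2, for which background was not subtracted. With neqc, which subtracts it, some differences grew, as between tissues for Mt2 and Slc30a3. Others shrank, as between treatments for Slc30a1 (0.045 in the hippocampus and 0.050 in the cortex, against 0.054 and 0.081).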
